A study of Homo sapiens with 4 samples.

Results

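The cyclin-dependent kinase (CDK) inhibitors and G1 cyclins were followed on 4 one-colour Agilent arrays of human proximal tubular cells (HPTCs) stimulated with IL-1β and empagliflozin (Empa). The group holds 10 genes: CDKN1A, CDKN1B, CDKN1C, CDKN2A, CDKN2B, CDKN2C, CDKN2D, CCND1, CCND2 and CCNE2. Its members are all non-control probes that the array files name as 1 of these genes, which gave 13 probes of 34127, under 10 of 25992 gene names. CDKN1B, CDKN2A and CCNE2 have 2 probes each. The genes were chosen with the levels on these same 4 arrays already known, so the levels below are a description and not independent evidence of any pattern.

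HK-2 cells are an HPTC line that owes its immortality to the papillomavirus proteins E6 and E7. RPTEC/TERT1 cells are an HPTC line that was immortalised by expression of telomerase reverse transcriptase. Each is a single line, and a difference between them would hold for these lines only. After 24 h without serum or supplements, both received IL-1β at 10 ng/mL together with Empa at 500 nM for a further 24 h. The label HK-2 is carried by 2 arrays and the label RPTEC/TERT1 by the other two, described in the methods as biological duplicates, and replicates 1 and 2 of a label are called its first and second array. No array of unstimulated cells or of cells under a single stimulus was analysed here, and neither IL-1β nor Empa has a control in what follows.

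Passage from G1 into S phase is governed by the retinoblastoma protein (RB), which holds E2F transcription factors inactive until CDKs phosphorylate it. D-type cyclins such as CCND1 and CCND2 activate CDK4 and CDK6, and E-type cyclins such as CCNE2 activate CDK2. Inhibitors of the INK4 family (CDKN2A, CDKN2B, CDKN2C and CDKN2D) bind CDK4 and CDK6, whereas those of the Cip/Kip family (CDKN1A, CDKN1B and CDKN1C) bind cyclin-CDK complexes more broadly. CDKN2A also encodes, from an alternative first exon, the protein ARF, which binds the ubiquitin ligase MDM2. The viral protein E7 binds and inactivates RB.

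The sequences of 3 probes are shown because they read the inhibitor that differed most between arrays, CDKN2A, and the main Cip/Kip inhibitors CDKN1A and CDKN1B. Each is printed whole, 5′ to 3′ and as deposited, in lower case with nothing marked.
CDKN2A, probe A_33_P3411628 (GRCh37 chr9:21970901-21970960, minus strand): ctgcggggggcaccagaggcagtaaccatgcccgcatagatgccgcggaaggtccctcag
CDKN1A, probe A_24_P89457 (GRCh37 chr6:36652178-36652237, plus strand): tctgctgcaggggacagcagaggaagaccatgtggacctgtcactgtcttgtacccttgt
CDKN1B, probe A_23_P204696 (GRCh37 chr12:12871119-12871178, plus strand): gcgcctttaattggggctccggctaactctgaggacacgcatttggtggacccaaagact
The other CDKN2A probe, A_23_P43490, lies on the same strand of chromosome 9 from 21968039 to 21968098. For both CDKN2A probes the array files list 4 RefSeq transcripts, those of p16INK4a and of ARF among them, so neither probe separates the 2 proteins' messages.

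The arrays did not group by their labels. Over the 20806 probes tested, the Pearson correlation across probes was 0.852 within the label HK-2 and 0.837 within RPTEC/TERT1, against 0.983 for the first HK-2 array with the second RPTEC/TERT1 array and 0.975 for the second HK-2 array with the first RPTEC/TERT1 array. Probes are not independent replicates. Each array keeps the name on its label below, and whether the labels of 2 arrays were exchanged was not tested. Every value given by cell line therefore holds for the labels as they stand. Replicate 1 of both labels was scanned on 1 date and replicate 2 on another. Of the 13 genes listed for the proximal tubule, 7 had a probe well above background on all 4 arrays, CDH16 and PAX8 among them. No probe of CUBN or HNF4A was well above background on any. Of 5 epithelial markers, 4 were well above background on all 4 arrays, KRT19 with a level between 4.33 and 6.11 and CDH1 being the exception, where a level is the log2 of the processed signal over the 75th percentile of its array. Feature Extraction, the software that gave the spot intensities, marked 59.2% to 64.9% of the 43118 spots as well above background. Precision is limited by there being only 2 arrays a label.

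Among the INK4 inhibitors, CDKN2A covered the widest range. On probe A_33_P3411628 its level was -1.26 on the first HK-2 array, 2.97 on the second, 2.86 on the first RPTEC/TERT1 array and -1.35 on the second. On probe A_23_P43490 it was 1.84, 5.38, 5.23 and 1.75 in the same order. Both probes put the second HK-2 array and the first RPTEC/TERT1 array high and the other two arrays low, so each label holds 1 high and 1 low array and the labels overlap. Between the HK-2 arrays the signal, scaled to the 75th percentile, differed 18.8-fold on A_33_P3411628 and 11.6-fold on A_23_P43490, and between the RPTEC/TERT1 arrays 18.6-fold and 11.2-fold. Between the second HK-2 array and the first RPTEC/TERT1 array it differed 1.08-fold and 1.11-fold, and between the first HK-2 array and the second RPTEC/TERT1 array it differed 1.07-fold on both probes. All CDKN2A spots were well above background and none was saturated. On the first HK-2 array, the low end of the 18.8-fold difference, A_33_P3411628 had a processed signal of 163.7. The brightest negative control there read 171.2, and their 95th percentile was 5.15. The RNA comes from bulk cultures, in which fewer cells expressing a gene and less RNA of it per cell cannot be told apart.

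CDKN2D, which encodes the inhibitor p19INK4d, was next. Its level was 1.43 on the first HK-2 array, 3.11 on the second, 2.69 on the first RPTEC/TERT1 array and 1.63 on the second, a difference of 3.21-fold between the HK-2 arrays and of 2.09-fold between the RPTEC/TERT1 arrays. The same 2 arrays were high as for CDKN2A. CDKN2C, which encodes p18INK4c, stood at -0.59, 0.62, 0.36 and -0.18 in the same order, again with the second HK-2 array and the first RPTEC/TERT1 array above the others but over a range of 1.20.

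CDKN2B encodes p15INK4b and is the neighbour of CDKN2A, its probe lying 38018 bases from the nearer CDKN2A probe. It was dim throughout, at -3.88 on the first HK-2 array, -4.28 on the second, -3.98 on the first RPTEC/TERT1 array and -3.25 on the second. Its order of arrays was not that of CDKN2A, since the second HK-2 array was lowest and the second RPTEC/TERT1 array highest. Every array had its spot marked well above background, with 4.21 to 19.5 times the 95th percentile of the 153 negative controls. The brightest of these controls exceeded it on every array except the second RPTEC/TERT1 array.

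**Figure D1:**
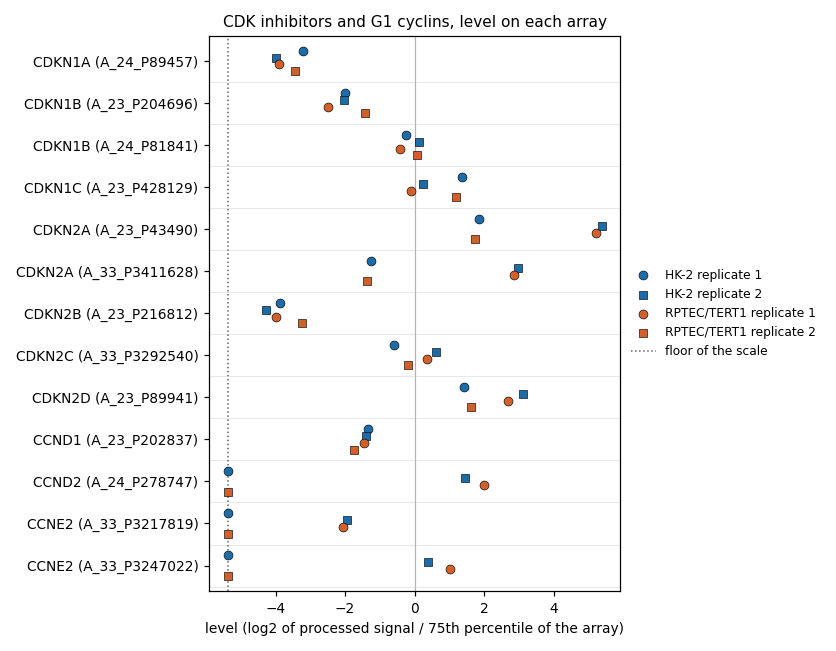
Level of each probe of the CDK inhibitors and G1 cyclins (log2 of processed signal over the array's 75th percentile, x axis) on the 4 arrays, with 1 symbol per array and the floor of the scale dotted. The CDKN2A, CCND2 and CCNE2 probes split into 2 high arrays, the second HK-2 array and the first RPTEC/TERT1 array, and 2 low ones, whereas CCND1 and probe A_24_P81841 of CDKN1B lie close together.

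The Cip/Kip inhibitors varied less than CDKN2A. CDKN1A, which encodes p21, was at -3.22 on the first HK-2 array, -3.98 on the second, -3.89 on the first RPTEC/TERT1 array and -3.44 on the second. The 2 arrays that were high for CDKN2A were the low ones for CDKN1A, but the widest gap was 1.70-fold. Between 47.8% and 52.6% of probes on an array were dimmer than its only probe, which read 5.18 to 17.0 times the 95th percentile of the negative controls. CDKN1A is therefore described by 1 dim spot per array, and the brightest negative control exceeded it on all arrays except the second RPTEC/TERT1 array.

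CDKN1C, which encodes p57, had levels of 1.36 on the first HK-2 array, 0.25 on the second, -0.10 on the first RPTEC/TERT1 array and 1.20 on the second. It was lower on the second HK-2 array and the first RPTEC/TERT1 array, by 2.15-fold between the HK-2 arrays and 2.47-fold between the RPTEC/TERT1 arrays. CDKN1B, which encodes p27, was read by a probe spotted 10 times, A_24_P81841, at -0.24, 0.12, -0.41 and 0.069 in the same order of arrays. Its range over the arrays was 0.53, and the SD of its 10 spots within an array, a technical spread, was 0.072 to 0.12. The other CDKN1B probe, whose sequence is given above, stood at -2.01, -2.02, -2.48 and -1.43, and both probes were lowest on the first RPTEC/TERT1 array but had different highest arrays.

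Of the G1 cyclins, CCND2 and CCNE2 were measured on only 2 of the 4 arrays. CCND2, which encodes cyclin D2, was at 1.44 on the second HK-2 array and 2.01 on the first RPTEC/TERT1 array, and not well above background on the other two. The signal was at least 112-fold higher on the second HK-2 array than on the first HK-2 array and at least 167-fold higher on the first RPTEC/TERT1 array than on the second RPTEC/TERT1 array, where the dim array is set to the floor of the scale. Each array has a dimmest scaled signal that was still marked well above background, and the floor is the largest of these 4. Its probe, A_24_P278747, lies on GRCh37 chr12:4414040-4414099.

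CCNE2, which encodes cyclin E2, was at 0.39 on the second HK-2 array and 1.03 on the first RPTEC/TERT1 array on probe A_33_P3247022, and at -1.94 and -2.05 on probe A_33_P3217819. Neither probe was well above background on the first HK-2 array or the second RPTEC/TERT1 array. The bound was at least 54.4-fold between the HK-2 arrays and at least 84.4-fold between the RPTEC/TERT1 arrays on A_33_P3247022, and at least 10.8-fold and 10.0-fold on the dimmer A_33_P3217819. Both CCNE2 probes thus named the same 2 arrays as CCND2 and CDKN2A.

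CCND1, which encodes cyclin D1 and is read by a probe spotted 10 times, was at -1.33 on the first HK-2 array, -1.41 on the second, -1.45 on the first RPTEC/TERT1 array and -1.75 on the second. Its range of 0.42 was the smallest of the 13 probes, and the SD of its spots within an array was 0.10 to 0.31. The 2 D-type cyclins of the group therefore differed in spread over the same arrays, CCND1 by 1.35-fold at most and CCND2 by at least 167-fold.

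**Figure D2:**
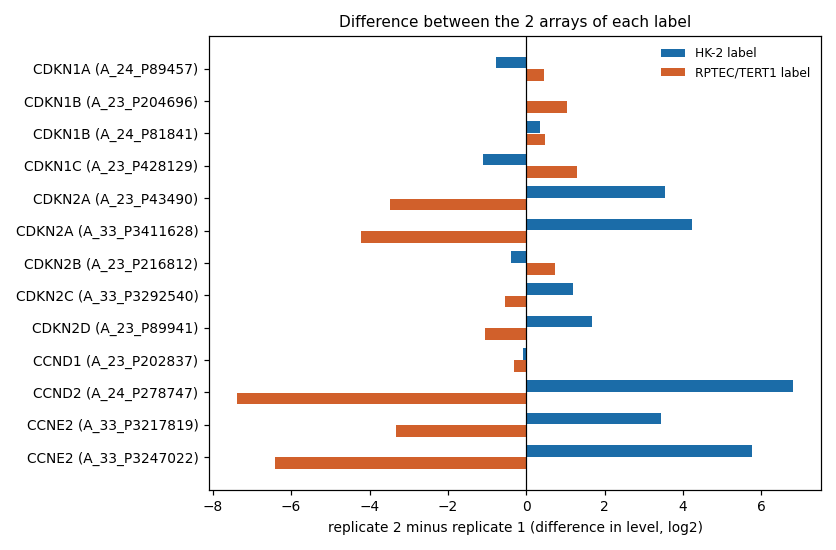
Replicate 2 minus replicate 1 (difference in level, log2, x axis) for each of the 13 probes, with 1 bar for the arrays labelled HK-2 and 1 for those labelled RPTEC/TERT1. The bars of a probe point in opposite directions for 11 of the 13 probes, and for CDKN2A, CCND2 and CCNE2 they are long on both sides. The CCND2 and CCNE2 bars are measured from the floor of the scale, and their length depends on where it is set.

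The range over the 4 arrays was over 2 on the log2 scale for 5 of the 13 probes, both of CDKN2A, both of CCNE2 and that of CCND2, beside 19% of all probes tested. The median range over all probes tested was 1.09. The difference between replicate 2 and replicate 1 was opposite in sign in the 2 labels for 11 of the 13 probes, the exceptions being CCND1 and probe A_24_P81841 of CDKN1B, beside 74.9% of all probes tested. These values are those by which the group was chosen, and nothing is read from their excess.

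Between pairs of arrays, the median absolute difference over the 13 probes was 1.20 for the arrays labelled HK-2 and 1.06 for those labelled RPTEC/TERT1. It was 1.26 for the arrays of replicate 1 and 1.03 for those of replicate 2. For the first HK-2 array and the second RPTEC/TERT1 array it was 0.20, with 0.63 as the highest single value, and for the second HK-2 array and the first RPTEC/TERT1 array it was 0.30 and 0.64. Probes over 1 apart numbered 8, 8, 7 and 7 in the first 4 pairs and 0 in each of the last 2. Over all probes tested the medians were 0.69, 0.83, 0.73, 0.70, 0.23 and 0.32 in the same order. CCND2 and both CCNE2 probes were at the floor of the scale on the first HK-2 array and the second RPTEC/TERT1 array. Their differences in that pair were therefore 0 by construction, which lowers its member median of 0.20. In the first 4 pairs the differences of these probes were measured from the floor.

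**Figure D3:**
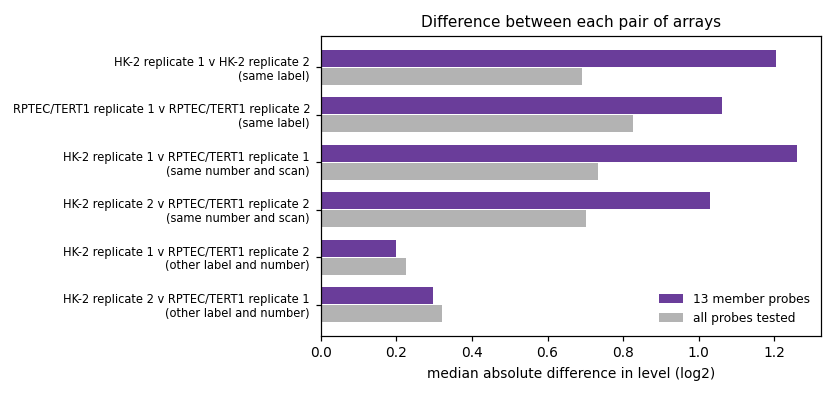
Median absolute difference in level (log2, x axis) between each of the 6 pairs of arrays, for the 13 member probes and for all 20806 probes tested. The 2 pairs that differ in both label and replicate number have medians of 0.20 and 0.30 for the member probes, and the other 4 pairs lie between 1.03 and 1.26. The 0.20 includes CCND2 and both CCNE2 probes, which are at the floor on both arrays of that pair and differ by 0 by construction.

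The comparison the labels allow, HK-2 with RPTEC/TERT1, called none of the members. With limma and Benjamini-Hochberg adjustment over 20806 probes, 0 of the 13 probes had an adjusted p under 0.05 and 0 an unadjusted p under 0.05, where 0% and 0.125% of all probes tested did. The widest difference, HK-2 minus RPTEC/TERT1, was -0.46 for CDKN2B (standard error 0.52, limma adjusted p = 1) at this scaling, and the same difference was 0.75 with normexp background correction and 0.38 with the deposited log2 values. CDKN2A had a level of 0.85 ± 2.99 (SD, n = 2) in HK-2 and of 0.75 ± 2.98 (SD, n = 2) in RPTEC/TERT1 on probe A_33_P3411628, a difference of 0.098 (standard error 2.07, limma adjusted p = 1). On probe A_23_P43490 HK-2 stood at 3.61 ± 2.50 (SD, n = 2) and RPTEC/TERT1 at 3.49 ± 2.46 (SD, n = 2), a difference of 0.12 (standard error 1.74, limma adjusted p = 1). With standard errors of this size a p near 1 does not show that the cell lines express CDKN2A alike.

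Within a scan date, where 1 array of each label can be set side by side without a test, the level of CDKN2A on probe A_33_P3411628, HK-2 minus RPTEC/TERT1, was -4.13 in replicate 1 and 4.32 in replicate 2. The same differences were -7.38 and 6.81 for CCND2, -1.26 and 1.48 for CDKN2D, 1.45 and -0.95 for CDKN1C and 0.67 and -0.54 for CDKN1A. The values of CCND2 rest on the floor in both. The 2 scan dates thus gave opposite directions for each of these genes, whose differences over all 4 arrays lay between -0.28 and 0.25. Only CCND1 had levels that did not overlap between the labels, with both HK-2 arrays above both RPTEC/TERT1 arrays by 0.23 on average (standard error 0.45, limma adjusted p = 1). That is 1 of 13 probes, beside 6.86% of all probes tested (3.98% with HK-2 higher and 2.87% with HK-2 lower). The nearest CCND1 levels of the 2 labels, on the second HK-2 array and the first RPTEC/TERT1 array, were only 0.045 apart. The SD of the CCND1 spots within these arrays was 0.157 and 0.306.

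The other genes of the G1 machinery, 21 genes read by 29 probes, gave 0 of 27 tested probes called higher and 0 called lower in HK-2 at an adjusted p under 0.05, with a median difference of 0.005, beside 0.016 over all probes tested. With limma, 0 of the 27 had an unadjusted p under 0.05. The widest ranges were those of E2F2, E2F1 and RBL1. E2F1, an activating E2F factor, was at 0.73 on the second HK-2 array and 0.84 on the first RPTEC/TERT1 array, and E2F2, its close relative, at 1.56 and 1.00. Neither was well above background on the other two. RBL1, which encodes the RB relative p107, was at -0.52 and -0.56 on these 2 arrays, at -4.17 on the second RPTEC/TERT1 array and at the floor on the first HK-2 array. All 3 were high on the arrays on which CDKN2A, CCND2 and CCNE2 were high. Of the 29 probes, 18 were higher both on the second than on the first HK-2 array and on the first than on the second RPTEC/TERT1 array, and 5 were lower on both. Over all probes tested, 74.9% had replicate differences of opposite sign in the 2 labels, in either direction. Such a count is therefore not particular to the G1 genes.

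Among the kinases on which the members act, CDK2, the partner of CCNE2, ranged over 2.67 log2 units, with levels of -3.94 on the first HK-2 array, -1.998 on the second, -1.28 on the first RPTEC/TERT1 array and -3.78 on the second. In the list as a whole, 11 of the 29 probes ranged over more than 2 log2 units, beside 19% of all probes tested. Among them were those of CCNE1, CKS1B, SKP2 and CDC25A and 1 of MYC, whose other probe was at the floor on all 4 arrays. CCNE1, another E-type cyclin gene, was well above background on all 4 arrays. It was at 0.32 on the first HK-2 array, 2.80 on the second, 2.76 on the first RPTEC/TERT1 array and 0.38 on the second. CDK4 was at 2.83 on the first HK-2 array, 3.56 on the second, 3.77 on the first RPTEC/TERT1 array and 2.46 on the second. CDK6 was at 1.44, 3.05 and 1.65 on the first HK-2 array, the first RPTEC/TERT1 array and the second RPTEC/TERT1 array, and has no value on the second HK-2 array, where its spot was an outlier. RB1 stayed between 1.43 and 1.97. The widest-ranging of 3 probes of MDM2, the ubiquitin ligase that ARF binds, was between -1.95 and -1.20.

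Of 9 genes of S and M phase read by 14 probes, 0 probes were called higher and 0 lower in HK-2 at a limma adjusted p under 0.05, with a median difference of -0.16 and 0 limma unadjusted p under 0.05. All 14 probes were higher on the second HK-2 array than on the first HK-2 array and higher on the first RPTEC/TERT1 array than on the second RPTEC/TERT1 array, and all 14 ranged over more than 2 log2 units. Of all probes tested, 74.9% had replicate differences of opposite sign in the 2 labels, in either direction, and 19% ranged over more than 2. CDK1, the mitotic kinase, was at -3.22 on the first HK-2 array, 3.65 on the second, 3.23 on the first RPTEC/TERT1 array and -2.48 on the second. CCNA2, a cyclin of S phase, was at 1.25 and 1.82 on the 2 high arrays, and TOP2A, the topoisomerase of dividing cells, at 2.25 and 2.29. Neither was well above background on the others. The inhibitor CDKN2A was thus bright on the arrays on which these genes of dividing cells were bright, and CDKN1C was dimmer there.

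**Figure D4:**
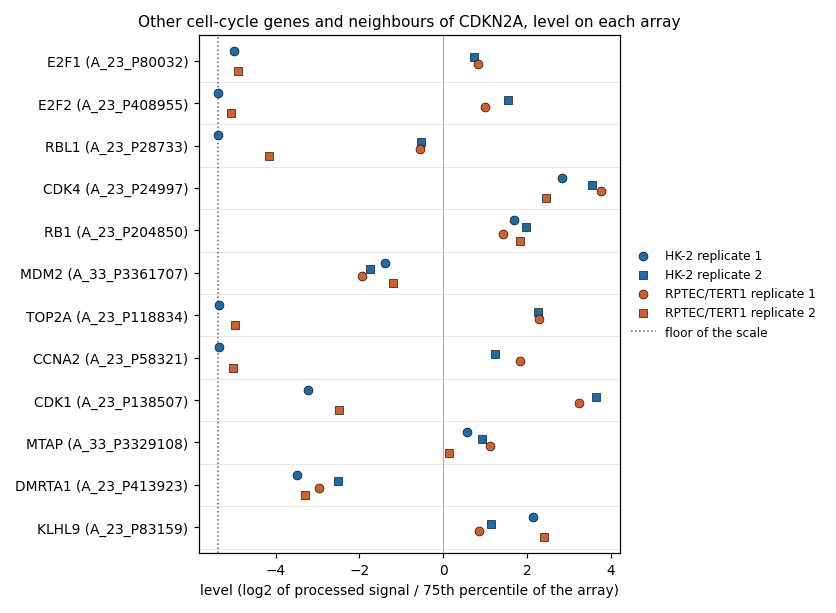
Level of other cell-cycle genes and of neighbours of CDKN2A on chromosome 9 (log2 of processed signal over the array's 75th percentile, x axis), by the widest-ranging probe of each gene, with 1 symbol per array and the floor dotted. E2F1, E2F2, RBL1, TOP2A, CCNA2 and CDK1 split into the same 2 high and 2 low arrays as CDKN2A, whereas RB1, MDM2 and MTAP spread over less than 1 log2 unit.

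Genes next to CDKN2A on chromosome 9 ranged less widely than CDKN2A. Of their 6 probes, 0 spanned over 2 log2 units, beside 19% of all probes tested. Their median range was 0.97, beside 1.09 over all probes tested, so a narrow range is not particular to these neighbours. MTAP, which encodes a methionine salvage enzyme, was at 0.56 on the first HK-2 array, 0.93 on the second, 1.10 on the first RPTEC/TERT1 array and 0.13 on the second on its widest-ranging probe. DMRTA1 ranged from -3.50 to -2.50 and KLHL9 from 0.86 to 2.40, with KLHL9 lowest on the 2 arrays on which CDKN2A was highest. Of the 6 probes, 4, those of MTAP and DMRTA1, were higher on the second than on the first HK-2 array and on the first than on the second RPTEC/TERT1 array, the order of CDKN2A. That of KLHL9 was lower on both. Over all probes tested, 74.9% had replicate differences of opposite sign in the 2 labels, in either direction, so this order is not particular to neighbours of CDKN2A. The antisense transcript CDKN2B-AS1 was not well above background on any array. Its probe was at the floor on all 4, so its range of 0 was fixed by the floor. Of the 5 probes of these neighbours that were tested, 0 were called between the labels (median difference 0.13, limma adjusted p = 1 for each).

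The 3 genes whose pattern over the 4 arrays was most like that of CDKN2A probe A_33_P3411628, by the root mean square difference of centred levels among 22830 probes, were NIPAL4 (0.038), CRTAC1 (0.043) and SCML2 (0.063). All 3 were at the floor on the first HK-2 array and the second RPTEC/TERT1 array, so their likeness to CDKN2A depends on where the floor is set. With 4 arrays such a ranking is only a description.

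Markers of cell identity moved with the arrays too. Among the genes listed for the proximal tubule, CDH16, the kidney-specific cadherin, was at 4.83 on the first HK-2 array, -0.55 on the second, -0.55 on the first RPTEC/TERT1 array and 4.97 on the second. ANPEP was at 0.49 and 0.47 on the first HK-2 array and the second RPTEC/TERT1 array and at the floor on the other two. Of the 20 proximal tubule probes, 7 were lower in this way on the second HK-2 and the first RPTEC/TERT1 array than on the other array of their label, and 4, of LRP2, GGT1 and MME, were higher. The log2 of the summed signal of the 13 proximal tubule genes was 5.82 and 3.06 on the HK-2 arrays and 3.63 and 5.77 on the RPTEC/TERT1 arrays, in replicate order. Such sums run over all probes of a list, those at the floor included. On the first HK-2 and the second RPTEC/TERT1 array the proximal tubule sum was led by CDH16 and PAX8. There it mainly follows these genes and is not a measure of proximal tubule identity. For 4 genes of the distal tubule and collecting duct the sum was -0.15, -2.04, -2.04 and 0.23. Its change was carried by 1 probe of SLC12A1, while SLC12A3 and AQP2 were not well above background on any array and UMOD stayed between -3.04 and -2.70. For the 5 epithelial genes the sum was 6.76, 5.62, 5.54 and 6.94. For the 5 fibroblast genes it was -2.70 and 1.86 on the HK-2 arrays and 1.48 and -2.71 on the RPTEC/TERT1 arrays, carried by DCN, while COL1A2, COL3A1 and PDGFRB were not well above background on any array. The sums of 4 endothelial and 4 leukocyte genes lay between -1.89 and -1.09 and between -1.54 and -0.68, with 1 and 2 genes well above background on all 4 arrays. Their part in the levels of the CDK inhibitors and cyclins was not tested.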

How the data were processed

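For each array the authors deposited a Feature Extraction 9.5.3.1 file of spot intensities on a linear scale, background-subtracted but not scaled between arrays, and a table of log2 values, whose making was not given in the sources used here. Per the file headers, probe positions are on GRCh37. Control and outlier spots were dropped. Each signal was expressed relative to its array's 75th percentile, with a floor of 0.0242 (a level of -5.37), and log2 levels were averaged over the spots of a probe. Probes well above background on at least 2 arrays entered limma 3.58.1 in R 4.3.3 (lmFit, eBayes, Benjamini-Hochberg adjustment, threshold 0.05). This step was run on simulated data with a change of 2 and a spread of 0.2 on the log2 scale. That run checks the working of the step and not its power at the spread of these arrays. All 13 members passed this filter, CCND2 and CCNE2 through exactly 2 arrays. RefSeq (GRCh38.p14) lists the transcripts of all 13 probes under the same symbols and was used for names only.

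The text names all members, the 3 widest-ranging genes of each list (G1 machinery, S and M phase, neighbours of CDKN2A), CDK4, CDK6, RB1 and MDM2, and the 3 genes most like CDKN2A; another gene of this rule is not reported here. CCNE1, CDK2, CKS1B, SKP2, CDC25A and MYC were named after their values were seen. The members and lists were chosen with earlier results of these data known, and the cell type markers named singly were picked after their values were seen. Alternatives were the background correction, the deposited log2 values, quantile normalization, the filter on dim probes, outlier spots, the floor, the replicate block and leaving out each array.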

Additional observations from a re-analysis of the deposited data

How the results depend on the processing

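Under every alternative run, limma called 0 of all probes, 0 members and 0 listed genes at an adjusted p under 0.05, while 5 to 298 probes passed at an unadjusted p. The replicate number, shared with the scan, served as a block in 1 alternative: this pairing called 0 probes and left 5 at an unadjusted p under 0.05 (26 unblocked), and the deviations of same-numbered arrays correlated at -0.795 across probes. With the pairing crossed, an alternative chosen after seeing the data, the replicate block called 0 probes, and 192 passed without adjustment. Quantile normalization moved the median absolute difference of members within a label from 1.13 to 1.24 and the number whose labels do not overlap from 1 to 2, while the deposited log2 values gave 0 for the latter and leaving out each array 5 to 9, since 1 array against 2 overlaps less often by construction. The filters on dim probes, the gene as unit and the replicate block repeat the member differences by construction. Where the values themselves were changed, the difference HK-2 minus RPTEC/TERT1 reversed for 8 of 13 members with normexp background correction, 5 of 13 with the deposited log2 values, 1 of 13 with a floor per array and 0 of 13 with quantile normalization. With normexp it reversed for CDKN1B A_23_P204696 (0.556), CDKN1C (-0.113), CDKN2A A_23_P43490 (-0.25), CDKN2B (0.747), CDKN2C (0.159), CDKN2D (-0.204), CCND2 (1.089) and CCNE2 A_33_P3247022 (0.956). With the deposited log2 values it reversed for CDKN1B A_23_P204696 (0.276), CDKN2B (0.376), CDKN2C (0.043), CCND2 (0.689) and CCNE2 A_33_P3247022 (0.573), and with a floor per array for CCND2 (0.095). The cause was not tested. Leaving out 1 array at a time reversed 18 of 46 values. The difference then ran from -0.317 to 0.449 for CDKN1A, from -0.586 to 0.461 for CDKN1B A_23_P204696, from -0.128 to 0.351 for CDKN1B A_24_P81841 and from -0.399 to 0.904 for CDKN1C. For CDKN2A it ran from -1.648 to 1.888 on A_23_P43490 and from -2.018 to 2.215 on A_33_P3411628, for CDKN2C from -0.677 to 0.527 and for CDKN2D from -0.731 to 0.952. For CCND2 it ran from -3.976 to 3.121, for CCNE2 A_33_P3217819 from -1.609 to 1.772 and for CCNE2 A_33_P3247022 from -3.518 to 2.564, each only without the first HK-2 or the second RPTEC/TERT1 array, since without either of the others the probe was well above background on 1 array. CDKN2B ran from -0.827 to -0.096 and CCND1 from 0.084 to 0.386. The standard errors of the members were 0.45 to 3.43.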
